A study of Mus musculus with 6 samples.

Results

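The tumour suppressor p53, its regulators and targets, and the genes for inhibitors of cyclin-dependent kinases (CDKs) were followed in crypt epithelium, the cell layer that lines the crypts of the mouse intestine. The 35 genes were chosen by symbol from a list drawn up with earlier results of these data known, and all 35 are among the 24930 genes of the deposited table. The mutant group comprised 3 β-cateninGOF/+ libraries, taken 4 days after 1 β-catenin allele was made mutant, and the control group comprised 3 libraries of the same tissue. The promoter or cell type that drove recombination, the genotype and treatment of the controls, and the age of the animals are not stated in the sources at hand. The labels do not say whether libraries came from separate animals, so p-values reflect only how far these libraries differ, part of which may be technical. Values are a normalized abundance made by the authors, given here as units, and absolute read depth is unknown.

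As background, p53 is a transcription factor held low by MDM2, which marks it for degradation, and by MDM4, which masks its activating domain. Damage and other stresses stabilize the p53 protein, so its activity is regulated mostly at the protein level and is commonly read from its targets. The targets arrest the cell cycle through Cdkn1a (p21), trigger cell death through genes such as Bax and Bbc3, aid DNA repair, and restore MDM2 in a feedback loop. In the intestine, p53 is known for the arrest and death of crypt cells after irradiation. The other CDK inhibitors, p27, p57, p15 and p16, brake the cycle under differentiation, growth factor or senescence signals.

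Before the values, short stretches of sequence show where letters of the p53 response element lie near the starts of members that are described further on. The element consists of a pair of half-sites of 10 bases with 0 to 13 bases between them, and it was searched by its consensus in RefSeq promoters (build GRCm38.p6), 250 bases before to 50 bases after each start. The consensus reads the same on both strands, so a single search covers both, and candidate pairs could overlap. Capitals mark the half-sites, and the stretches are written 5′ to 3′ on the strand of the gene.
Cdkn1a, wide pair: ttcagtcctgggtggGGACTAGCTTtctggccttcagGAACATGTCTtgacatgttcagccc
Cdkn1a, adjoining pair: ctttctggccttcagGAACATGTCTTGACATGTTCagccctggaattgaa
Ccng1: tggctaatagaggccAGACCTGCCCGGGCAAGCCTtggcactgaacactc
Bax: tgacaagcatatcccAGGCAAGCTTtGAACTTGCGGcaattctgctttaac
Sesn1: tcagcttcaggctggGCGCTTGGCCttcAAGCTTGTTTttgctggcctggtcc

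The Cdkn1a stretches lie on the plus strand at chr17:29090891-29090952 and chr17:29090913-29090962. The wide pair has 0 mismatches and a spacer of 12 bases, and the adjoining pair has 1 mismatch and 0 spacer bases. Both belong to the upstream of the 2 Cdkn1a starts in the RefSeq table, which is 2790 bases from the other, and span positions -73 to -42 and -51 to -32 from that start. The Ccng1 stretch, at chr11:40755447-40755496 on the minus strand, has 1 mismatch. The Bax stretch, at chr7:45467064-45467114 on the minus strand, and the Sesn1 stretch, at chr10:41887238-41887290 on the plus strand, have 2 mismatches each. With at most 2 mismatches, 4 of the 35 member promoters held the element, from 4 of 26 genes with an entry, against 4.09% of all 32851 promoters in the table. With 0 mismatches the share over all promoters was 0.0731%, and with at most 1 it was 0.627%. A match describes letters and is not evidence of binding. The other 22 genes with an entry had no match in this window, and p53 elements are known to lie in introns and further upstream as well.

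Over the whole set, the members stood mostly higher in mutant libraries, and mutant replicate 3 stood far above the other libraries. Of the 35 genes, 34 averaged 1 unit or more across the libraries and were tested with limma. The exception was Cdkn2a. Among the 34, 28 were higher and 6 lower in mutant libraries, with a median log2 difference of 0.48, against a median of -0.02 over all 11837 genes tested, of which 47.3% were higher. A log2 difference of at least 1 was seen in 8 of the 34, against 2.65% of all genes tested. None of the 34 passed an adjusted p of 0.05 (0% of all genes tested were called higher and 0.0169% lower), and their adjusted p ranged from 0.589, shared by 21 members, to 0.991 in limma. At an unadjusted p under 0.05 in limma, 11 members were higher and 0 lower, where 4.72% of all genes were higher and 3.59% lower. That count was 5, 3 and 4 without control replicates 1, 2 and 3, and 2 with sex of the library as a covariate. Over all genes, 559 were higher at that level with all libraries. Without control replicates 1, 2 and 3 there were 316, 240 and 486, and with the sex covariate 250. 4 of the tested members, Phlda3, Eda2r, Ddit4l and Cdkn1c, had a control mean under 1 unit and met the minimum through the mutant libraries, so the counts over tested members include genes that had to differ.

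**Figure D1:**
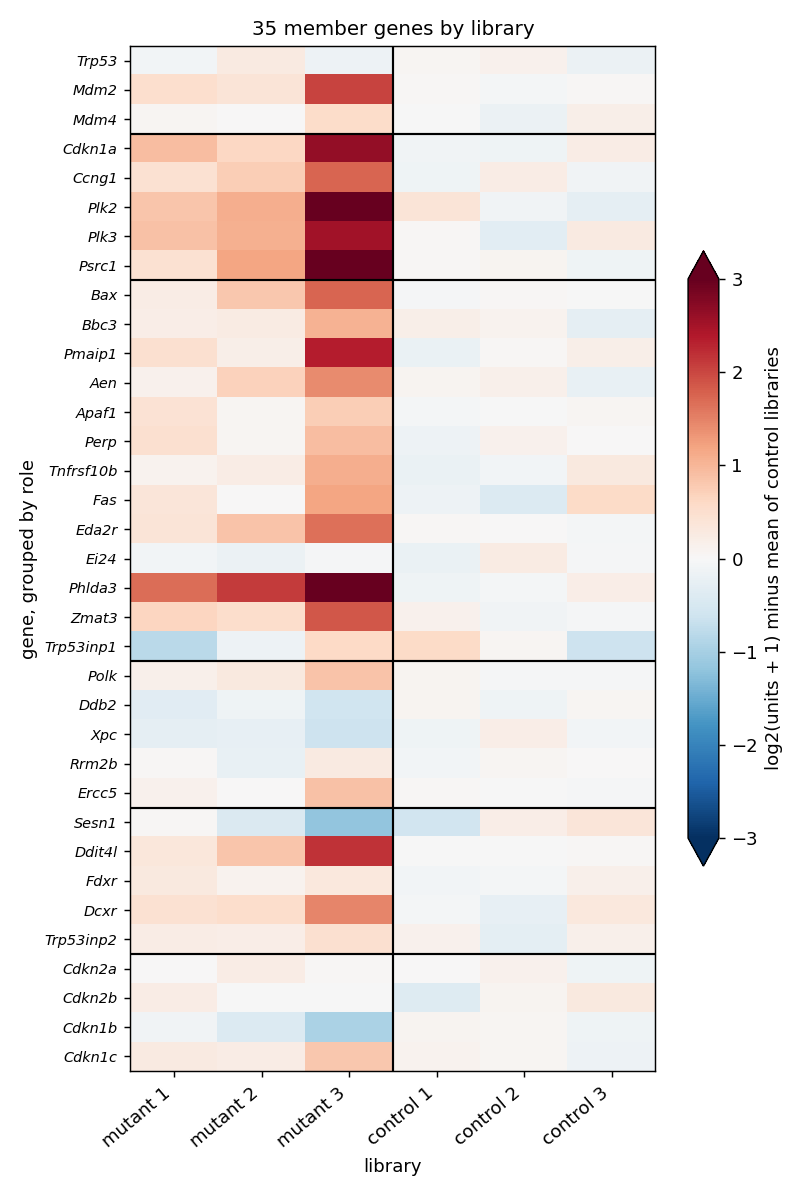
Each row is 1 of the 35 genes, grouped by role between the black lines, and each column is a library, mutant left of control. Colour gives log2(units + 1) minus the mean of the control libraries, with values beyond 3 in either direction drawn in the end colour; the column of mutant replicate 3 is the darkest for most rows, and the rows of Ddb2, Xpc, Sesn1 and Cdkn1b are blue there.

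Every mutant value lay above every control value for 17 of the 35 genes and below for 1, Xpc, where 8.34% of all tested genes lay above and 8.37% below. The highest of the 6 libraries was mutant replicate 3 for 27 of the 35 genes, against 29.7% of all tested genes, and it was the highest for 17 of the 17 that lay above, against 73.0% of the 987 tested genes that lay above. Over the 34 tested members the median log2 distance from the control mean was 0.25 in mutant replicate 1, 0.23 in mutant replicate 2 and 0.99 in mutant replicate 3. Among the 17 that lay above, which were chosen by these values, the ratio to the control mean had a median of 1.44 in mutant replicate 1, 1.67 in mutant replicate 2 and 4.90 in mutant replicate 3. Mutant replicate 2 exceeded mutant replicate 1 in 11 of the 17. Without mutant replicate 3 the median log2 difference was 0.23 over the 32 members then tested, and the smallest adjusted p was 0.159, for Phlda3, in limma. In a bulk library, more cells that express a gene and more RNA per cell cannot be told apart. With 3 libraries against 3, the smallest p an exact two-sided permutation test can give is 0.1.

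**Figure D2:**
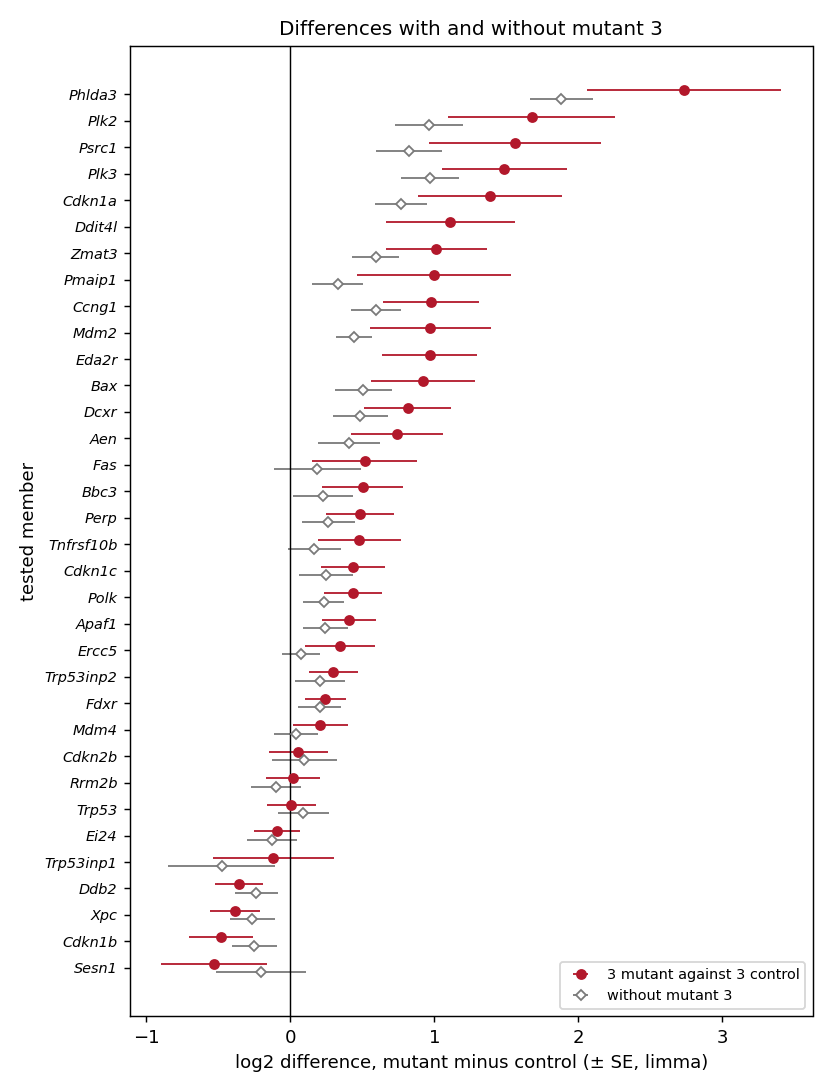
Log2 differences, mutant minus control, on the log2(units + 1) scale with their SE from limma, for the 34 tested members. Red points use all 6 libraries and open diamonds leave out mutant replicate 3; Phlda3 leads in both, at 2.74 and 1.88, and Eda2r and Ddit4l have no diamond because their mean is then under 1 unit.

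The messenger RNA of p53 itself did not separate the groups, while that of its inhibitor Mdm2 did. Trp53 had 46.9, 59.9 and 44.3 units in mutant replicates 1, 2 and 3, against 51.6, 54.6 and 43.6 units in control replicates 1, 2 and 3. The groups overlapped throughout, with means of 50.4 ± 8.37 units in mutant and 49.9 ± 5.72 units in control libraries (SD, n = 3 each) and a log2 difference of 0.01 ± 0.17 (SE). Its sign turned under several settings. Mdm2, both the ubiquitin ligase for p53 and a p53 target, had 22.9, 21.2 and 68.6 units in mutant libraries, against 16.4, 15.2 and 16.4 units in controls. All 3 mutant values lay above the controls, which spread by only 0.690 units (SD), and the difference was 0.97 ± 0.42 with all libraries and 0.44 ± 0.13 without mutant replicate 3 (log2 ± SE). Mdm4, the relative of Mdm2 that binds p53 without degrading it, had 27.7, 26.6 and 38.9 units in mutant libraries, against 26.2, 23.2 and 30.1 units in controls. Only the third mutant library stood above all controls for Mdm4, and the difference was 0.21 ± 0.19.

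Targets that act on the cell cycle separated the groups: all 5 lay above every control value in every mutant library, against 8.34% of all tested genes. Their median log2 difference was 1.49. Cdkn1a, the CDK inhibitor p21 and the gene with the fully matched element shown above, had 93.5, 75.5 and 307 units in mutant libraries, against 45.6, 44.8 and 57.2 units in controls. The means were 159 ± 129 units in mutant and 49.2 ± 6.97 units in control libraries (SD, n = 3 each), and the log2 difference was 1.39 ± 0.50 with all libraries and 0.77 ± 0.18 without mutant replicate 3. The third mutant library thus held several times the level of the other mutant libraries, which still exceeded each control. Ccng1, cyclin G1, a cyclin that recruits a phosphatase to MDM2, had 34.7, 42.5 and 86.6 units in mutant libraries, against 22.9, 29.6 and 23.3 units in controls (log2 difference of 0.98 ± 0.33).

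The polo-like kinases Plk2 and Plk3, which take part in centriole duplication and stress checkpoints, were low in controls. Plk2 had 3.67, 4.54 and 21.4 units in mutant libraries, against 2.40, 1.42 and 1.16 units in controls, and its log2 difference was 1.68 ± 0.58. Plk3 had 6.51, 7.46 and 22.4 units in mutant libraries, against 3.18, 2.28 and 3.91 units in controls, and its log2 difference was 1.49 ± 0.43. Each mutant library was above each control in both. Psrc1, a microtubule-binding protein, had 5.90, 10.3 and 40.1 units in mutant libraries, against 4.15, 4.29 and 3.57 units in controls. Its first mutant value was within 2 units of the highest control value, and the log2 difference was 1.56 ± 0.60 with mutant replicate 3 and 0.82 ± 0.23 without it.

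**Figure D3:**
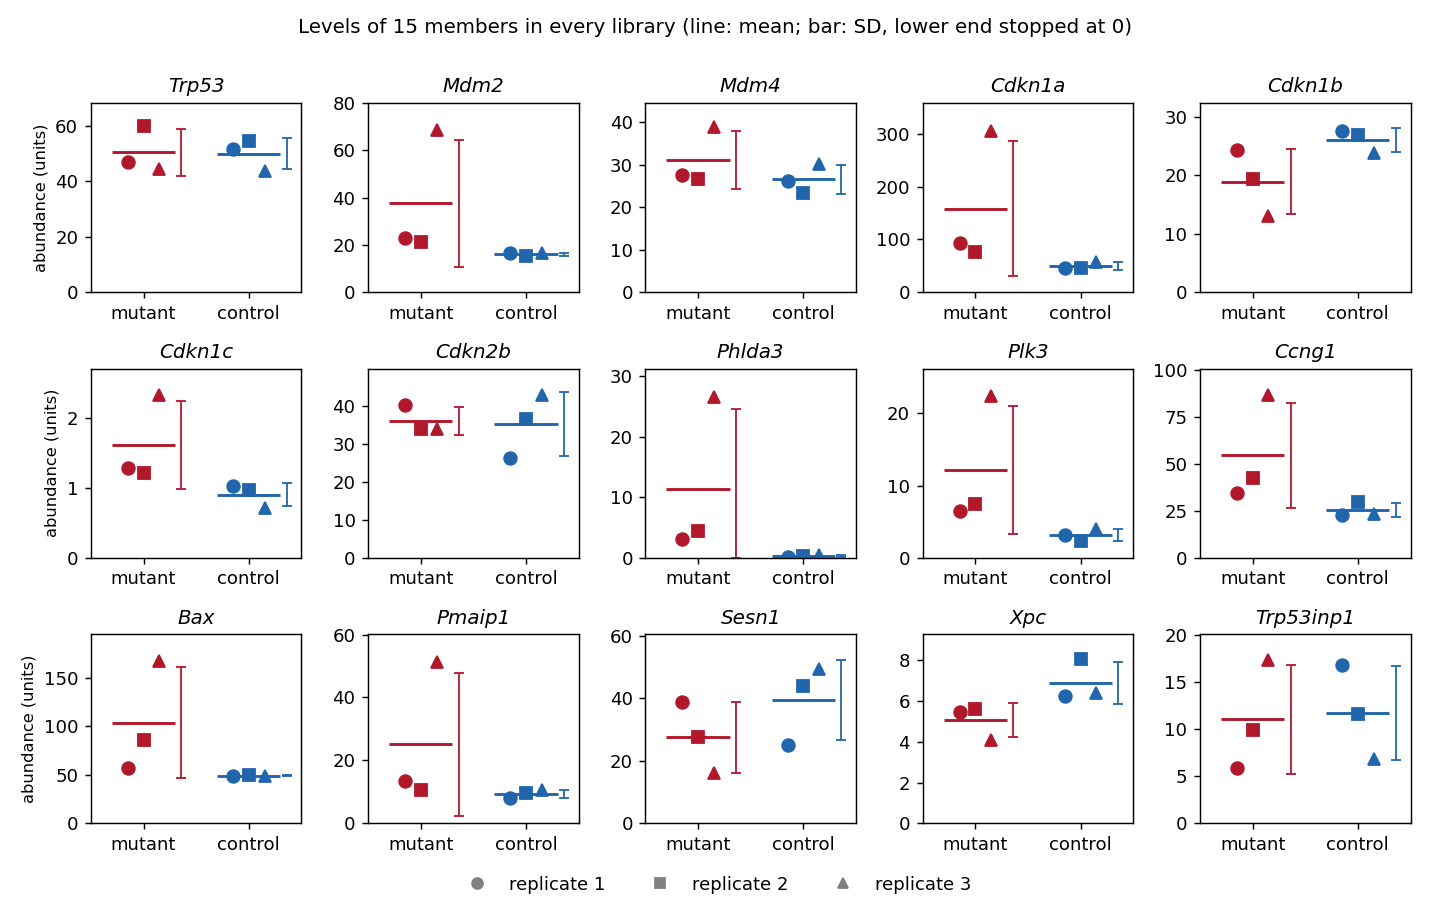
Abundance in units of 15 members in every library, mutant left of control in each panel. Symbols mark replicates, horizontal lines the means and vertical bars the SD (n = 3 each); Mdm2, Cdkn1a, Phlda3, Plk3, Ccng1, Bax and Pmaip1 have all mutant symbols above all control symbols, while Trp53, Cdkn2b, Sesn1 and Trp53inp1 overlap.

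Of 13 targets that promote cell death or restrain growth, 11 were higher in mutant libraries, where 47.3% of all tested genes were higher. Of the 13, 6 lay above every control value, against 8.34% of all tested genes, and the median log2 difference was 0.52. Both counts include Phlda3 and Eda2r, which met the minimum of 1 unit through the mutant libraries. Phlda3, which competes with the kinase AKT for membrane lipids, had the largest difference among the 34 tested members. It had 3.03, 4.39 and 26.6 units in mutant libraries, against 0.159, 0.206 and 0.446 units in controls. Its mean ratio was 41.9, and the ratio to the control mean was 11.2, 16.2 and 98.2 in mutant replicates 1, 2 and 3. The log2 difference, 2.74 ± 0.68, understates this ratio because 1 unit is added before the logarithm.

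Bax, which opens the outer mitochondrial membrane, had 57.4, 86.5 and 168 units in mutant libraries, against 48.4, 50.1 and 49.2 units in controls. The controls were nearly equal (SD of 0.853 units), and the lowest mutant value was 1.17 times their mean. Eda2r, a receptor of the tumour necrosis factor family encoded on the X chromosome, had 0.810, 1.50 and 3.35 units in mutant libraries, against 0.421, 0.403 and 0.319 units in controls. Zmat3, an RNA-binding zinc finger protein, had 3.71, 3.33 and 9.81 units in mutant libraries, against 2.30, 1.78 and 1.93 units in controls. Both genes separated the groups, at log2 differences of 0.97 ± 0.33 and 1.01 ± 0.35. Aen, a nuclease that acts on DNA in dying cells, had 8.48, 13.0 and 22.2 units in mutant libraries, against 8.23, 8.67 and 6.42 units in controls. Here the first mutant library lay between 2 controls, so the groups overlapped.

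The BH3-only genes Bbc3 (PUMA) and Pmaip1 (NOXA), which release BAX from its inhibitors, also lay above all controls, but by little in 2 of the mutant libraries. Pmaip1 had 13.4, 10.5 and 51.2 units in mutant libraries, against 7.90, 9.56 and 10.5 units in controls, and its value in mutant replicate 2 and in control replicate 3 were equal to 3 digits. Bbc3 had 1.35, 1.44 and 3.24 units in mutant libraries, against 1.30, 1.19 and 0.699 units in controls. Their log2 differences were 1.00 ± 0.53 and 0.50 ± 0.28 with all libraries, and 0.33 ± 0.17 and 0.23 ± 0.21 without mutant replicate 3.

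Death receptors and the apoptosome adaptor overlapped between the groups. The receptor genes Fas and Tnfrsf10b had means of 9.82 ± 4.70 and 10.6 ± 4.67 units in mutant libraries, against 6.43 ± 2.76 and 7.01 ± 1.46 units in controls (SD, n = 3 each). Apaf1, which assembles with cytochrome c to activate caspases, and Perp, a p53 target that is also a desmosome protein, had log2 differences of 0.41 ± 0.19 and 0.48 ± 0.23. In these 4 genes the third mutant library was the highest of all. Ei24, an endoplasmic reticulum protein linked to autophagy, was lower on average, at 57.4 ± 3.32 units in mutant and 61.7 ± 9.72 units in control libraries. Trp53inp1, a stress protein that promotes autophagy and p53 phosphorylation, had 5.86, 9.95 and 17.3 units in mutant libraries, against 16.8, 11.6 and 6.82 units in controls, so that both groups spanned nearly the same range.

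Targets in stress signalling, autophagy and metabolism were higher in 4 of 5 cases, where 47.3% of all tested genes were higher. Of these, 3 lay above every control value, against 8.34% of all tested genes. Among the 3 is Ddit4l, which met the minimum of 1 unit through the mutant libraries. Ddit4l, an inhibitor of mTORC1 signalling, had 0.488, 1.08 and 4.24 units in mutant libraries, against 0.162, 0.157 and 0.189 units in controls, and a log2 difference of 1.11 ± 0.45. Dcxr, a reductase of sugars and dicarbonyls, had 10.3, 10.8 and 21.8 units in mutant libraries, against 6.89, 5.91 and 9.21 units in controls, and a log2 difference of 0.82 ± 0.30. Trp53inp2, an autophagy factor, lay above all controls by a small margin, at 20.7 ± 2.42 units in mutant and 16.7 ± 2.85 units in control libraries. Fdxr, a mitochondrial reductase of iron-sulfur cluster synthesis, overlapped (log2 difference of 0.24 ± 0.14).

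Sesn1, a leucine-sensing inhibitor of mTORC1, stood the other way, with the lowest mean log2 difference among the tested members. It had 38.8, 27.7 and 16.2 units in mutant libraries, against 25.0, 43.9 and 49.5 units in controls. The groups overlapped because control replicate 1 was low, and the log2 difference of -0.53 ± 0.37 became -0.20 ± 0.31 without mutant replicate 3 and 0.11 with array weights. Its relative Sesn2, which is not among the 35 members, had 5.13, 6.31 and 10.0 units in mutant libraries, against 3.05, 2.32 and 2.74 units in controls. The 2 sestrins had opposite signs, and a test of the difference between them was not run.

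The DNA repair targets showed no shared direction, with 3 of 5 higher and 2 lower, where 47.3% of all tested genes were higher. Their median log2 difference was 0.02. Xpc, which recognizes distorted DNA in nucleotide excision repair, had 5.47, 5.62 and 4.09 units in mutant libraries, against 6.24, 8.09 and 6.38 units in controls. It was the 1 member with all mutant values below all controls, at a log2 difference of -0.38 ± 0.17. Ddb2, the ultraviolet damage sensor that is a p53 target in human cells, had 8.06 ± 1.49 units in mutant and 10.5 ± 0.937 units in control libraries (log2 difference of -0.36 ± 0.16). Mutant replicate 3, the highest library for most other targets, was the lowest of the 6 for both Xpc and Ddb2.

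Polk, a translesion DNA polymerase, lay above all controls, at 5.90 ± 1.81 units in mutant and 3.99 ± 0.219 units in control libraries. Ercc5, an endonuclease of excision repair, was high in the third mutant library alone, with 6.63, 6.00 and 11.9 units in mutant libraries, against 6.18, 5.90 and 5.80 units in controls. Rrm2b, the p53-inducible subunit of ribonucleotide reductase, had 1.89 ± 0.487 units in mutant and 1.82 ± 0.136 units in control libraries, and the sign of its difference turned without mutant replicate 3.

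The 5 CDK inhibitor genes did not move as a group. Beside Cdkn1a, described above, Cdkn1c (p57) lay above all controls at a low level, with 1.28, 1.21 and 2.33 units in mutant libraries, against 1.02, 0.964 and 0.709 units in controls. Cdkn1b (p27) stood the other way, with 24.3, 19.4 and 13.1 units in mutant libraries, against 27.5, 27.0 and 23.8 units in controls. Its first mutant value lay within the control range and the others below it, and the log2 difference was -0.48 ± 0.22, or -0.25 ± 0.16 without mutant replicate 3. Cdkn2b (p15) had 40.2, 34.0 and 34.0 units in mutant libraries, against 26.2, 36.6 and 42.9 units in controls, and the groups overlapped at a log2 difference of 0.06 ± 0.20. Cdkn2a, which encodes p16 and, from another reading frame, the MDM2 inhibitor p19ARF, had 0.105, 0.276 and 0.118 units in mutant libraries, against 0.105, 0.203 and 0 units in controls. It was too low to be tested, the groups overlapped (exact permutation test, two-sided, p = 0.4), and a value per gene cannot separate its products.

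Genes around these members were read from 5 further lists, for which 3 genes each are named by smallest p, and others where a limit or a count needs them. Of 31 other p53 targets tested, 25 were higher and 6 lower (median log2 difference of 0.44), where 47.3% of all tested genes were higher, and 0 passed over all genes. Gdf15 and Crip2, with control means of 0.321 and 0.434 units, met the minimum of 1 unit through the mutant libraries. The 25 thus include genes that had to be higher. In that list 13 of the 38 genes in the table lay above all controls and 1 below, against 8.34% above and 8.37% below among all tested genes. Gtse1, a microtubule protein that shuttles p53 out of the nucleus, had 9.89, 15.8 and 22.7 units in mutant libraries, against 6.89, 7.56 and 5.74 units in controls. Ephx1, an epoxide hydrolase of detoxification, had 14.8, 21.8 and 56.4 units in mutant libraries, against 6.43, 8.63 and 8.60 units in controls. With Sesn2, given above, these had the smallest p of that list, and their adjusted p was 0.589 in limma.

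Upstream kinases and modifiers of p53 leaned the other way, with 2 of 18 tested higher, 16 lower, a median log2 difference of -0.24, and 5 of 20 in the table below every control value, against 47.3% higher and 8.37% below among all tested genes. Mdc1, a scaffold at DNA breaks, had 7.72, 8.92 and 5.07 units in mutant libraries, against 11.3, 11.7 and 11.1 units in controls. Trp53bp1, the break-binding protein 53BP1, had 4.37, 3.84 and 3.51 units in mutant libraries, against 5.32, 5.19 and 5.80 units in controls. Atm, the kinase that signals DNA breaks to p53, had 5.33, 5.23 and 2.35 units in mutant libraries, against 6.95, 7.85 and 6.47 units in controls. In all 3 genes every mutant value lay below every control, and 0 of the 18 passed over all genes. Without mutant replicate 3 the median of the list was -0.05.

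Of 24 cyclins, CDKs and pocket proteins, 9 were higher and 15 lower (median log2 difference of -0.13), with 1 above and 2 below all controls, where 8.34% of all tested genes lay above and 8.37% below. Rbl2, the pocket protein p130, had 8.13 ± 1.69 units in mutant and 11.1 ± 0.919 units in control libraries (SD, n = 3 each). Tfdp2, a partner of E2F factors, had 8.75 ± 3.26 units in mutant and 13.5 ± 2.92 units in control libraries, and E2f3 had 10.6 ± 4.42 units in mutant and 6.80 ± 0.275 units in control libraries. Of 20 proliferation genes known to be repressed by p53 through the DREAM complex, 6 were higher and 14 lower (median log2 difference of -0.15), with 0 outside the control range in all mutant libraries, and 18 of the 20 were lowest in mutant replicate 3, as were 36.4% of all tested genes. Mki67, the proliferation marker Ki-67, had 51.3, 52.3 and 20.6 units in mutant libraries, against 50.9, 78.3 and 46.2 units in controls. Top2a had 72.5, 88.2 and 30.4 units in mutant libraries, against 78.3, 110 and 69.0 units in controls, and Cenpf had a log2 difference of -0.73 ± 0.44. The median of these 20 genes was 0.10 without mutant replicate 3, -0.23 between male and 0.08 between female libraries. Of 9 other brakes on the cycle, 4 were higher and 5 lower, and the 3 with the smallest p, Tob1, Wee1 and Cdkn2c, overlapped between the groups. Of the 9, 1 lay above all controls, Cdkn2aip, and 1 below, Cdkn2d (the CDK inhibitor p19INK4d), a pair named after their values were seen. Among all tested genes 8.34% lay above and 8.37% below. The log2 differences of the pair were small, at 0.09 ± 0.12 and -0.20 ± 0.13. None of these 53 genes passed an adjusted p of 0.05 in limma.

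**Figure D4:**
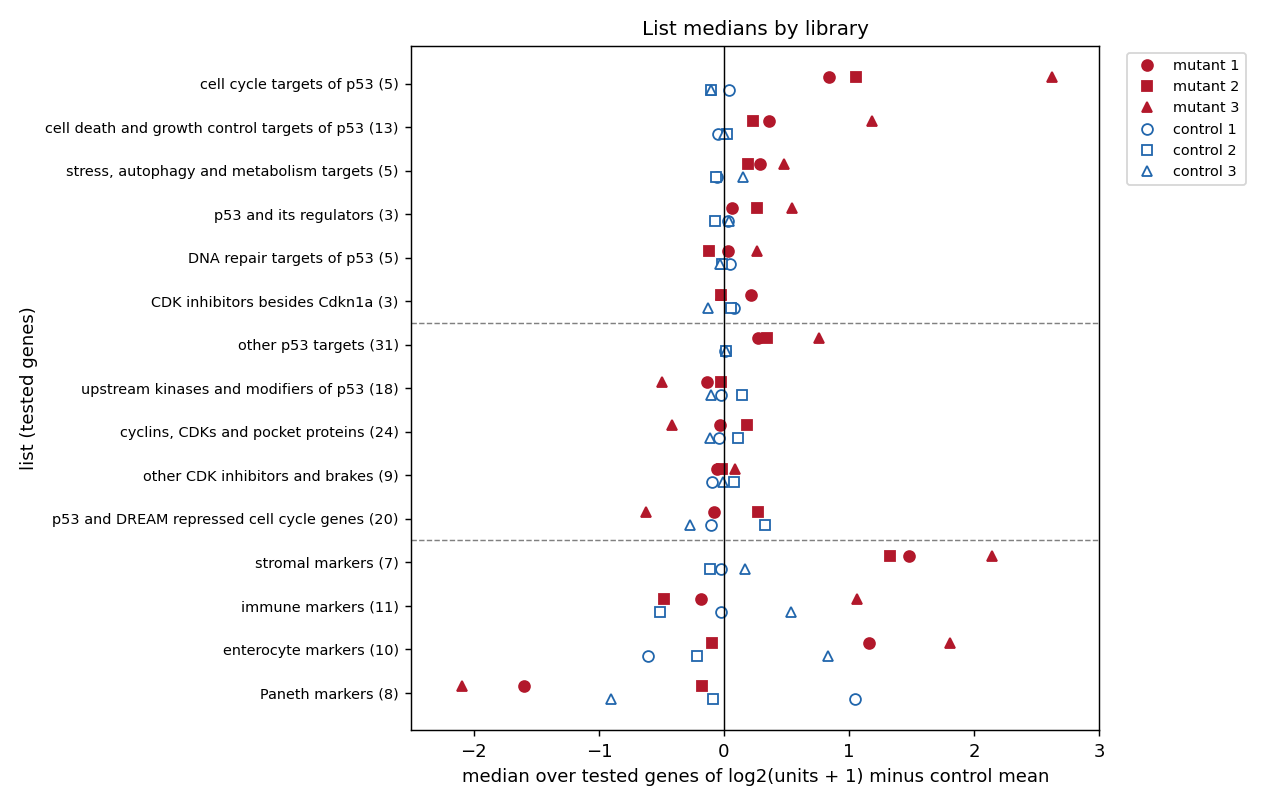
For each list, the median over its tested genes of log2(units + 1) minus the control mean is plotted for each library, with filled red symbols for mutant and open blue symbols for control libraries. Cell cycle targets of p53 lie at 0.84, 1.06 and 2.63 in mutant replicates 1, 2 and 3, proliferation genes are at -0.63 in mutant replicate 3, and stromal, immune, enterocyte and Paneth markers stand under the lower dashed line. The stromal median covers 7 tested markers, most of which met the minimum through the mutant libraries and so had to be higher.

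Markers of epithelium and of other cell types also differed between libraries, and their relation to the members' values was not computed. All 10 epithelial markers were detected in every library, with summed levels of 5585 to 7339 units in mutant and 4864 to 5906 units in control libraries. Of 14 stromal markers, 12 lay above every control value in every mutant library, against 8.34% of all tested genes. The 14 summed to 22.9 to 51.9 units in mutant and 6.80 to 12.6 units in control libraries, and only 7 were high enough to be tested. Of those 7, Col1a2, Col3a1, Dcn, Sparc and Mgp had control means under 1 unit. They met the minimum through the mutant libraries, so they had to be higher there. Pdgfra, which marks stromal fibroblasts, was among the untested, with 0.149, 0.103 and 0.204 units in mutant libraries and 0 in all 3 controls. Thy1 and Pdgfrb overlapped between the groups. Thy1 was tested and was lower on average in mutant libraries, at a log2 difference of -0.29 ± 0.37 (SE). Pdgfrb, also untested, had 0.615 ± 0.452 units in mutant and 0.568 ± 0.236 units in control libraries (SD, n = 3 each). Immune marker sums were 795, 381 and 1642 units in mutant replicates 1, 2 and 3, against 798, 487 and 1207 units in control replicates 1, 2 and 3, and endothelial marker sums were at most 2.41 units in mutant and 1.08 units in control libraries. Enterocyte markers, of which 0 of 10 separated the groups, summed to 13067, 5863 and 25483 units in mutant libraries, against 3668, 5011 and 10222 units in controls, and Paneth markers summed to 54707, 158666 and 35626 units in mutant and to 352217, 166231 and 94581 units in control libraries. The part of other cell types in the members' values was not tested.

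Xist and Y-linked genes marked 1 mutant and 2 control libraries as male and the other 3 as female. The median log2 difference of the tested members was 0.33 between male and 0.63 between female libraries, each of which has a group of a single library. For the cell cycle targets it was 0.70 between male and 1.52 between female libraries, and for targets of cell death and growth control 0.36 between male and 0.92 between female libraries. Mutant replicates 2 and 3 are both female. An interaction of group and sex in limma, which tests whether the difference is unequal between the sexes, called 0 of 11837 genes at an adjusted p of 0.05 and 254 at an unadjusted p under 0.05, of which 1, Trp53inp1, is a member.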

How the data were processed

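RNA of 3 mutant and 3 control libraries was measured by sequencing of poly-A RNA, per the labels' protocols. The deposited values, made by the authors, are a signal that measures normalized abundance for each gene; kallisto 0.46.1, DESeq2 1.40.1 and mm9 appear in the submitters' processing notes without a role, and how the values were made is not given in the sources used here. They are not counts (0% of values above 0 are whole, within 1e-06) and not scaled to a common total (totals of 645225 to 1268771 units), and median ratios to the geometric mean lay between 0.990 and 1.01. Steps among values under 0.3 units put the relative reads per unit at 0.894 to 1.42, with control replicate 1 at 1, which depends on gene length and gives no count. Column names gave group and replicate number, which tied each column to a sample; 0 were left over, and the columns named for a heterozygous exon change were taken as the mutant ones.

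Genes averaging 1 unit or more were fitted as log2(value + 1) with limma 3.58.1 in R 4.3.3 (mean-variance trend, group alone, Benjamini-Hochberg adjustment over all genes), and the fit was tested on simulated data. Log2 differences are mutant minus control and understate changes of low genes. A count test, planned in case counts were deposited, was left out. The members, lists and tests were chosen with earlier results of these data known. Values in every library are given for Trp53, Mdm2, Mdm4, the CDK inhibitors and the 12 other members with the smallest p, and for others where a contrast needs them, and 3 genes with the smallest p are named for each further list. Promoters matched 26 of 35 symbols in a RefSeq table; Pmaip1, Perp, Tnfrsf10b, Zmat3, Trp53inp1, Ddb2, Xpc, Rrm2b and Cdkn1c were without an entry. Python 3.11.15, pandas 2.3.3, SciPy 1.17.1 and matplotlib 3.10.9 made tables and figures.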

Additional observations from a re-analysis of the deposited data

Results flagged for a closer look

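In 3 members every mutant library of one sex stood above the controls of that sex, and every mutant library of the other sex below its own. The log2 difference of Trp53 was -0.18 between male and 0.24 between female libraries. For Trp53inp1 it was -1.13 between male and 0.86 between female libraries, and for Cdkn2b 0.37 between male and -0.33 between female libraries. The male comparison has 1 mutant library and the female comparison 1 control library. Groups this small separate easily for any gene, and the share of all genes with this pattern was not computed. The 3 members are thus not read as differing between the sexes. An interaction of group and sex in limma, which leaves 2 residual degrees of freedom, called 0 of 11837 genes at an adjusted p of 0.05. For Trp53inp1 its p was 0.0181 before and 1.00 after adjustment in limma. The mean difference also changed sign between male and female libraries in Sesn1, Rrm2b and Cdkn2a, where values overlapped within at least 1 sex; in Sesn1 it was 0.22 between male and -1.18 between female libraries.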

How the results depend on the processing

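No member passed an adjusted p of 0.05 in limma under any setting tried. At 0.1, 0 members passed with the settings of the report and 1 with array weights, where the smallest adjusted p was 0.0918 in limma. The count over all genes, 2, was 0 without a filter, with sex as a covariate and with the replicate block, 1 with upper-quartile scaling, with a pseudocount of 5 and without a variance trend, 27 with array weights (whose estimate stopped short of its convergence tolerance), 6 at an adjusted p under 0.1, and 0 to 4 when each library was left out. Members at an unadjusted p under 0.05, 11, numbered 2 with the sex covariate, 15 with the replicate block and 3 to 15 with a library left out. Over all genes the counts moved as well, from 559 higher and 425 lower in the main fit. They were 250 and 193 with the sex covariate, and 874 and 583 with the replicate block. Without control replicate 2, which gave the 3, they were 240 and 209. Deviations of same-numbered libraries correlated at -0.29 for number 1, 0.33 for number 2 and 0.32 for number 3; since number 1 did not deviate together, the numbers are not taken to pair them. The median log2 difference stayed between 0.23 (without mutant replicate 3) and 0.63 (female libraries alone), and members with groups apart numbered 18 to 24. The 24 came without control replicate 3, where 1786 of 11832 tested genes lay above and 1836 below. With all libraries, which gave 18, 987 of 11837 lay above and 991 below. Fewer libraries separate more easily for any gene, so the higher counts do not show a stronger separation of members. Directions were kept in 524 of 535 pairs of member and setting, and in 63 of 68 pairs of member and a single sex. Those that turned were Trp53 (-0.068 with array weights), Sesn1 (0.11 with array weights) and, over left-out libraries, Trp53 (-0.12 to 0.091), Ei24 (-0.19 to 0.025), Trp53inp1 (-0.48 to 0.23), Rrm2b (-0.10 to 0.15) and Cdkn2b (-0.14 to 0.21), and, in one sex alone, Trp53 (-0.18, male), Sesn1 (0.22, male), Trp53inp1 (0.86, female), Rrm2b (-0.0087, female) and Cdkn2b (-0.33, female), for which the cause was not tested. Absolute depth is unknown, so counting error of low genes such as Cdkn2a, Eda2r and Ddit4l is not given.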
